A study of Mus musculus with 16 samples.

Results

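RNA from the cortex of wild-type (WT) mouse fetuses at embryonic day 18.5 was compared between an enriched environment (EE) and standard habitation (SH). The 10 cortex libraries, 5 EE and 5 SH, were all that the sample titles assign to cortex, out of 16 libraries in the series. The other 6 came from hippocampus (3 EE, 3 SH). The series title places the exposure before birth and names the AHR-Src pathway, so the comparison asks how the transcriptome of the unborn cortex differed when the housing was enriched. The labels give no litter, fetus, sex or strain, so a p-value here measures only the spread between libraries, some of which may share a litter. Levels are FPKM, fragments per kilobase of transcript relative to sequencing depth. Differences are EE minus SH on the scale log2(FPKM + 1), which understates the change of low genes. Cortex replicates 1 to 3 and replicates 4 and 5 list different numbers of genes (15996 and 13448), so they were treated as 2 sets, called here the first and the second set, each with its own baseline.

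Late in gestation the cerebral cortex is finishing neurogenesis. Radial glia and intermediate progenitors near the ventricle produce projection neurons that migrate outward into layers, while interneurons born in the ventral forebrain migrate in along paths set by the chemokine CXCL12 and its receptors. Activity, growth factors and hormones switch on immediate early genes in minutes, and microRNAs such as miR-124 repress non-neuronal transcripts as neurons mature. Enriched housing means added space, objects or company for the animals, and in adult rodents it is known for its effects on synapses and activity-dependent genes.

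The tested genes were the 12539 that are listed in all 10 cortex libraries with a mean of at least 1 FPKM. In limma with Benjamini-Hochberg adjustment over these genes, 1 gene passed an adjusted p of 0.05, which is 0.00798% of those tested. It was Mir124a-1hg, the host transcript of a miR-124 precursor, and it fell in the EE cortex. At an unadjusted p under 0.05, 245 genes were higher in EE (1.95%) and 689 lower (5.49%). Without SH replicate 3 these counts were 227 and 1192 of 12564 genes tested. Without EE replicate 4 they were 193 and 582 of 12541. In 146 genes (1.16%) every EE library lay above every SH library of its own set, and in 370 (2.95%) below. Over all genes 46.0% of the differences were positive and 54.0% negative, with a median of -0.02. The recovered depth was 11489203 to 20810536 reads per library, with 430 to 784 reads for the median gene.

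Several libraries stood apart before any comparison of groups. SH replicate 3 had a summed FPKM of 511438, against 339726 to 396658 in the other 9. Its reads differed from SH replicates 1 and 2 by a chi-square of 129 and 138 per gene, where those 2 differed by 7.34. Its summed level of 7 erythroid genes was 4227 FPKM, against 967 to 1891 elsewhere. EE replicate 4 had Ttr, the choroid plexus transthyretin gene, at 689 FPKM, against 8.30 to 281 in the other libraries. It was also the one cortex library with 4 Y-linked genes (Ddx3y, Eif2s3y, Kdm5d, Uty) listed at 0, and its Xist level was 0.993 FPKM, against 0.00849 to 0.0745 in the others. The cortical layer factors Tbr1 and Bcl11b measured 9.83 to 40.1 FPKM across all 10 libraries. That range does not check the tissue label, because Bcl11b also measured 10.6 to 15.4 FPKM in the hippocampal libraries.

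Mir124a-1hg (also called Rncr3) is a long noncoding RNA gene at mm10 chr14:64587331-64593961 on the plus strand in GENCODE M21. The 85-base Mir124a-1 hairpin, at chr14:64590657-64590741 in RefSeq, lies inside it, so the host transcript is the precursor of one of the sources of miR-124. In the first set the level was 2.55, 2.001 and 2.90 FPKM in EE and 8.23, 7.66 and 8.32 FPKM in SH. In the second set it was 5.83 and 4.39 FPKM in EE and 15.8 and 13.5 FPKM in SH. The second set was higher in both groups, and within each set no EE library reached an SH library. The EE mean was 3.54 ± 1.56 FPKM and the SH mean 10.7 ± 3.71 FPKM (SD, n = 5 each), a ratio of 0.330. The fitted log2 difference was -1.38 (SE 0.11, limma adjusted p = 0.00147), with -1.39 in the first set and -1.37 in the second set. These values rest on 134 to 294 reads per EE library and 633 to 823 per SH library. The call did not hold in the first set alone (limma adjusted p = 0.202) or without the term for the set (0.147). In hippocampus the same gene measured 5.22, 7.32 and 5.11 FPKM in EE and 10.1, 15.2 and 16.7 FPKM in SH, a log2 difference of -1.11. The limma fit over both tissues gave an unadjusted p of 0.254 for the difference of this effect from that in cortex.

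**Figure D1:**
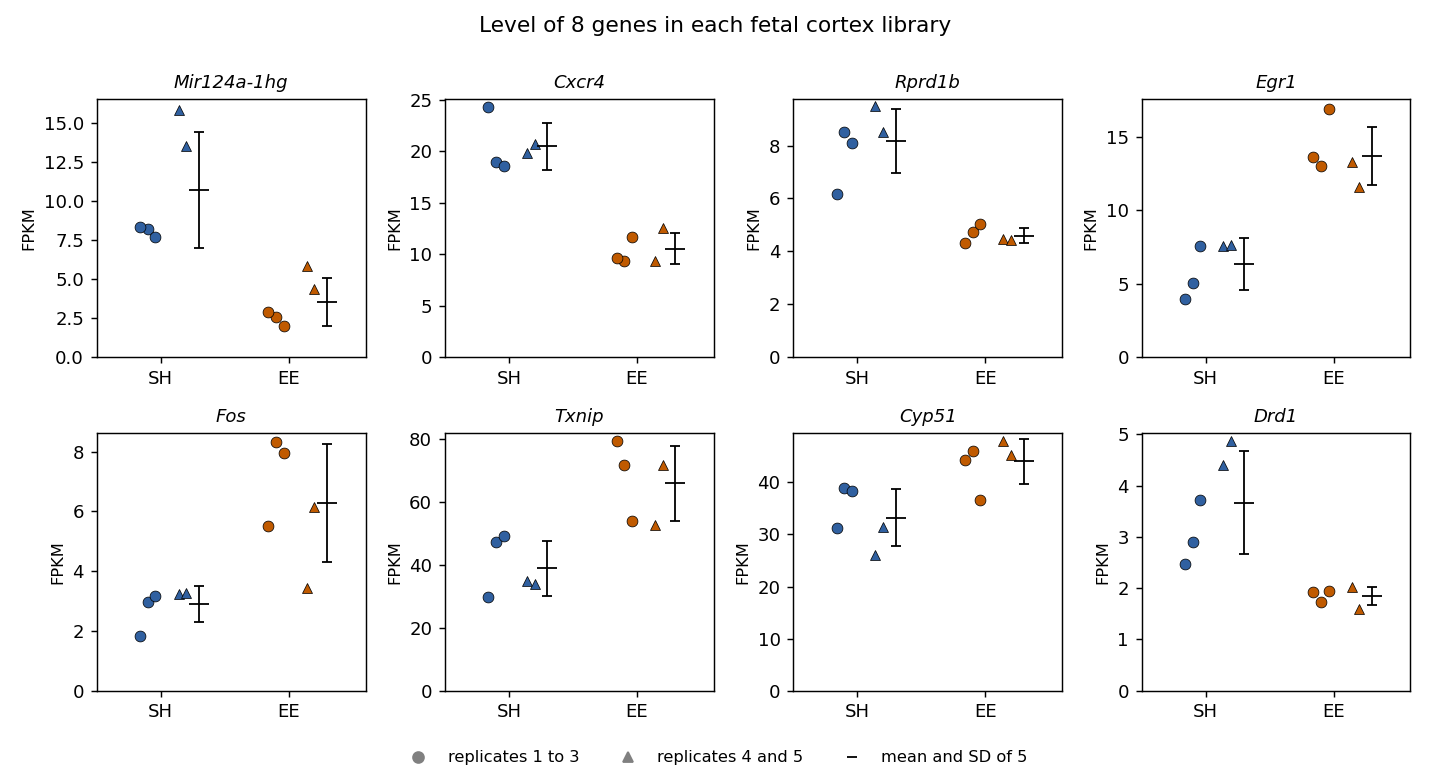
FPKM of 8 genes in each cortex library (vertical axes in FPKM, starting at 0), with SH in blue and EE in orange, circles for replicates 1 to 3, triangles for replicates 4 and 5, and bars for the mean and SD of 5 libraries. Mir124a-1hg, Cxcr4, Rprd1b and Drd1 are lower in every EE library than in every SH library of the same set, and Egr1, Fos and Txnip are higher.

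The second host gene in the list of noncoding RNAs, Mir124-2hg, carries another miR-124 precursor on chromosome 3. It was looked up because of the first, outside the rule for named genes. Its EE levels were 7.48, 6.55, 8.19, 7.11 and 6.64 FPKM and its SH levels 6.93, 5.94, 10.6, 7.34 and 8.33 FPKM, so the groups overlapped (log2 difference -0.09, limma adjusted p = 0.885). Of 27 tested genes listed as miR-124 targets, 17 were positive and 10 negative, with a median of 0.02 beside -0.02 over all genes. The median turned to -0.06 without SH replicate 3 and was 0.05 without EE replicate 4. With an unadjusted p under 0.05 there were 1 higher and 1 lower member, beside 1.95% and 5.49% of all genes. Without SH replicate 3 there were 1 higher and 3 lower, beside 227 and 1192 of 12564 genes in that fit. Mature miR-124 is not measured by these libraries. Mirg, a host transcript of an imprinted microRNA cluster, had a log2 difference of -0.49 (limma adjusted p = 0.378), with EE at 3.15, 3.29, 4.35, 6.04 and 4.33 FPKM and SH at 5.45, 6.37, 6.96, 5.73 and 6.74 FPKM. EE replicate 4 overlapped SH there.

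Cxcr4, the receptor through which migrating interneurons and progenitors sense CXCL12, was the gene with the next smallest p. It measured 9.36, 11.7, 9.63, 9.38 and 12.6 FPKM in EE and 19.01, 18.5, 24.3, 19.8 and 20.7 FPKM in SH. All 5 EE libraries lay below all 5 SH libraries, and the means were 10.5 ± 1.498 and 20.5 ± 2.29 FPKM (SD, n = 5 each). The log2 difference of -0.90 (SE 0.12) missed the threshold (limma adjusted p = 0.0728). It passed without SH replicate 3 (-0.83, limma adjusted p = 0.0155). Ackr3, the atypical receptor that removes CXCL12, measured 11.97, 13.02, 11.9, 8.63 and 12.6 FPKM in EE and 15.3, 13.6, 13.4, 15.1 and 13.5 FPKM in SH. No EE library reached an SH library of its set, at a log2 difference of -0.28 (limma adjusted p = 0.613), and -0.18 without EE replicate 4. Cxcl14, a chemokine, was at 9.10 to 11.3 FPKM in EE and 9.75 to 15.5 FPKM in SH, and its difference was -0.42 in the first set and -0.03 in the second set. Of the 7 tested genes of the chemokine list 4 were negative, with a median of -0.14 (-0.05 without EE replicate 4), and 3 were lower at an unadjusted p under 0.05, beside 5.49% of all genes.

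The other genes ranked lowest by p were a mixed group with small, even differences. Apart from Mir124a-1hg and Cxcr4, the 15 lower genes with the smallest p had log2 differences down to -0.45 at the weakest and adjusted p-values up to 0.185. All 15 were separated in both sets, against 2.95% of all genes. That count is partly fixed by ranking on p, so nothing is read from it. Rprd1b, a partner of RNA polymerase II, measured 4.71, 5.04, 4.32, 4.45 and 4.44 FPKM in EE and 8.53, 8.11, 6.18, 9.49 and 8.52 FPKM in SH. Its EE libraries were close together and all below SH, at a log2 difference of -0.70 (limma adjusted p = 0.170), which passed without SH replicate 3 (-0.79, limma adjusted p = 0.0111). Cwc22, a splicing factor that also loads the exon junction complex, measured 5.16, 5.67, 4.36, 6.47 and 6.01 FPKM in EE and 8.78, 7.78, 7.68, 10.5 and 11.2 FPKM in SH (log2 difference -0.64, limma adjusted p = 0.163). Some mouse strains carry extra copies of Cwc22, and how the authors' counting treated them is not given in the sources used here. Tab1, an activator of the kinase TAK1, had a log2 difference of -0.67, Tsku, a secreted inhibitor of Wnt and TGF-beta signals, -0.55, Cog2, a Golgi tethering subunit, -0.54, and Rnaseh1, which cuts RNA paired to DNA, -0.59.

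The higher genes with the smallest p had log2 differences from 0.35 to 1.03 and adjusted p-values from 0.185 to 0.378. None passed. They began with Egr1, an immediate early transcription factor. It measured 13.04, 16.9, 13.6, 13.3 and 11.6 FPKM in EE and 5.04, 7.55, 3.94, 7.55 and 7.63 FPKM in SH. All 5 EE libraries lay above all 5 SH libraries, with means of 13.7 ± 1.96 and 6.34 ± 1.74 FPKM (SD, n = 5 each). The log2 difference was 1.03 (SE 0.17, limma adjusted p = 0.185), with 1.28 in the first set and 0.64 in the second set. Fos, which forms the AP-1 factor with Jun proteins, measured 8.31, 7.96, 5.53, 3.45 and 6.14 FPKM in EE and 2.98, 3.17, 1.82, 3.22 and 3.26 FPKM in SH. EE replicate 4 was just above SH and EE replicates 1 and 2 were highest, at a log2 difference of 0.87 (limma adjusted p = 0.314). Klf4, a zinc finger factor induced by many stimuli, had 3.67 to 4.95 FPKM in EE and 1.599 to 3.76 FPKM in SH (log2 difference 0.55). Dusp1, a phosphatase that ends MAP kinase signals, had 12.5 to 16.7 FPKM in EE and 9.44 to 12.4 FPKM in SH (0.36).

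The immediate early list as a whole did not lie to one side. Of 21 tested members 11 were positive and 10 negative, with a median of 0.04 that turned to -0.01 without SH replicate 3 and -0.02 without EE replicate 4. Unadjusted p-values under 0.05 were found for 6 higher members, beside 1.95% of all genes, and 1 lower, beside 5.49%. Separated were 3 upward, beside 1.16% of all genes, and 1 downward, beside 2.95%. Without SH replicate 3 the counts by unadjusted p were 6 higher and 3 lower, beside 227 and 1192 of all 12564 genes. In the fit over all libraries the picture was as follows. The lower member was Arc, a synaptic plasticity gene, at 1.24, 1.93, 1.61, 0.838 and 1.24 FPKM in EE and 2.25, 2.12, 2.27, 2.79 and 2.52 FPKM in SH. Every EE library was below every SH library, opposite to Egr1 and Fos (log2 difference -0.53, limma adjusted p = 0.315). Arc also had the smallest p of the difference between tissues: its hippocampal difference was 0.24, which is 0.76 above that of cortex (limma unadjusted p = 0.00223, adjusted p = 0.998). The 250 bases before the Fos start are shown because they hold the cyclic AMP response element through which neuronal activity is known to act on this gene. They lie at chr12:85473640-85473889 on the plus strand (RefSeq, GRCm38.p6), and capitals mark TGACG, searched on both strands.
Fos: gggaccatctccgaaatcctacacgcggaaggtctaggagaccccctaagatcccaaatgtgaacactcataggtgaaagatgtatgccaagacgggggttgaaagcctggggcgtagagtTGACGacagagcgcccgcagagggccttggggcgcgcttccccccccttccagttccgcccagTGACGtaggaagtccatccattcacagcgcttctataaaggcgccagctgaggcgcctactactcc
TGACG was found in the same 250-base window of 15 of 20 immediate early genes with an entry, in 5 of 10 of the higher genes, in 6 of 9 of the lower genes, and in 27.8% of the tested genes with an entry. Such a short match is common and is a description of letters only.

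Socs3, a feedback inhibitor of cytokine signals, and Pim1, a kinase induced by the same STAT pathway, were both among the higher genes. Socs3 measured 3.25, 3.72, 3.05, 3.46 and 3.12 FPKM in EE and 2.37, 2.45, 2.55, 2.45 and 1.96 FPKM in SH, with no overlap of the groups (log2 difference 0.36, limma adjusted p = 0.315). Pim1 had 5.32 to 8.56 FPKM in EE and 3.62 to 5.63 FPKM in SH (0.42). Slco1c1, the thyroxine transporter of the blood-brain barrier, measured 14.7, 14.9, 14.1, 21.5 and 17.9 FPKM in EE and 13.7, 12.2, 9.49, 10.1 and 11.1 FPKM in SH. It was separated in both sets, with a larger difference in the second set (0.83) than in the first set (0.29). The endothelial list it belongs to was balanced, with 9 positive and 10 negative of 19 and a median of -0.00. Stau2, an RNA transport protein of dendrites, had 27.3 to 31.5 FPKM in EE and 20.2 to 27.2 FPKM in SH (0.35), and all 5 EE libraries lay above SH. Zfp207, Plekhf2, Klhl1 and Mamld1 had log2 differences of 0.47, 0.45, 0.46 and 0.47, and each was separated in both sets.

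**Figure D2:**
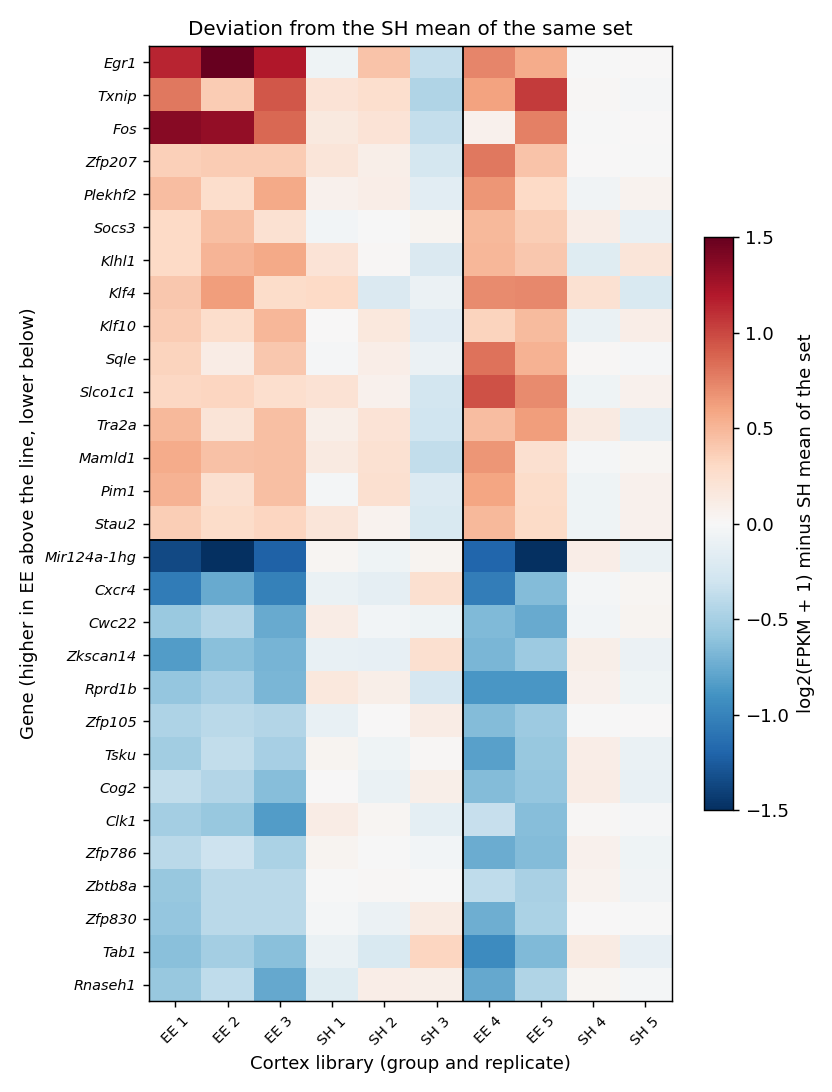
Log2(FPKM + 1) of 29 genes in each cortex library (columns), minus the SH mean of the same set, in color from blue (lower) to red (higher), with values beyond 1.5 drawn in the end color. The vertical line parts replicates 1 to 3 from replicates 4 and 5, and the genes above the horizontal line are higher in EE in both sets while those below are lower in both.

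Txnip, which binds thioredoxin, restrains glucose uptake and is itself switched on by glucose, measured 71.5, 53.8, 79.4, 52.6 and 71.6 FPKM in EE and 47.3, 49.0, 29.6, 34.7 and 33.8 FPKM in SH. The lowest EE library was above the highest SH library, and the means were 65.8 ± 11.9 and 38.9 ± 8.70 FPKM (SD, n = 5 each). The log2 difference was 0.75 (SE 0.16, limma adjusted p = 0.271), with 0.70 and 0.82 in the sets of replicates. Arrdc3, an arrestin-domain relative of Txnip, measured 15.2, 14.1, 26.0, 25.7 and 14.6 FPKM in EE and 14.7, 12.5, 8.05, 13.5 and 11.4 FPKM in SH. EE replicates 3 and 4 were high, EE replicate 2 lay below SH replicate 1, and the difference was 0.60 in each set. Mlx, the partner of the glucose-sensing factors MondoA and ChREBP, lay the other way, with 12.3 to 13.3 FPKM in EE and 14.1 to 20.03 FPKM in SH and no overlap (log2 difference -0.35, limma adjusted p = 0.384). The list of glucose-responsive and thioredoxin genes was split, with 7 positive and 6 negative of 13, and a median of 0.02. At an unadjusted p under 0.05, 3 were higher and 2 lower, beside 1.95% and 5.49% of all genes. Without EE replicate 4 the median turned to -0.10, with 2 higher and 1 lower, beside 193 and 582 of all 12541 genes. Over all libraries the sets took opposite signs (-0.23 and 0.22).

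The sequence before the Txnip start is shown because it holds the paired E-box known as the carbohydrate response element. It lies at chr3:96557707-96557956 on the plus strand (RefSeq, GRCm38.p6), and capitals mark the match to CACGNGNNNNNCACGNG, searched on both strands, which begins 85 bases before the start.
Txnip: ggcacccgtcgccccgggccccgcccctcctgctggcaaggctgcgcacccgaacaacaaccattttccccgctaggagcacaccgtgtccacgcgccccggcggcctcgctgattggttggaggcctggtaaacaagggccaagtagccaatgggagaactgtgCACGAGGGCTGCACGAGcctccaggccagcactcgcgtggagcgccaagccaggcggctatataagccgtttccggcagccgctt
These letters occur in the 250-base window of 14 of 27025 genes with an entry (0.052%), and in 1 of 13 genes of the glucose-responsive list, Txnip itself.

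Sterol synthesis genes lay higher in EE in both sets of replicates. Of 24 tested genes of cholesterol and fatty acid synthesis 17 were positive, with a median of 0.20 beside -0.02 over all genes. At an unadjusted p under 0.05, 6 were higher, beside 1.95% of all genes, and 0 lower. The list's median was 0.15 in the first set, 0.25 in the second set, and 0.15 in hippocampus. Without SH replicate 3 it was 0.15, with 7 higher and 1 lower, beside 227 and 1192 of all 12564 genes in that fit. Without EE replicate 4 it was 0.16, with 4 higher, beside 193 of all 12541 genes. Only 1 member was separated in both sets, beside 1.16% of all genes, and none passed the adjusted threshold.

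Sqle, the squalene epoxidase that commits the pathway to sterols, was that member, with 64.0, 54.6, 67.4, 76.7 and 62.5 FPKM in EE and 49.98, 54.5, 47.5, 43.8 and 42.6 FPKM in SH. EE replicate 2 exceeded SH replicate 2 by a narrow margin, and the log2 difference was 0.44 (SE 0.11, limma adjusted p = 0.326). Cyp51, the lanosterol demethylase, measured 46.0, 36.5, 44.3, 48.0 and 45.2 FPKM in EE and 38.9, 38.4, 31.3, 26.0 and 31.5 FPKM in SH. EE replicate 2 lay among the SH libraries there, at a log2 difference of 0.40. Idi1, which makes the isoprenoid building block, had a difference of 0.48, and Nsdhl, a later demethylation enzyme, one of 0.35. The Cyp51 window is shown for the sterol response element bound by SREBP factors. It lies at chr5:4104698-4104947 on the minus strand (RefSeq, GRCm38.p6), and capitals mark ATCACCNCA, searched on both strands, beginning 89 bases before the start.
Cyp51: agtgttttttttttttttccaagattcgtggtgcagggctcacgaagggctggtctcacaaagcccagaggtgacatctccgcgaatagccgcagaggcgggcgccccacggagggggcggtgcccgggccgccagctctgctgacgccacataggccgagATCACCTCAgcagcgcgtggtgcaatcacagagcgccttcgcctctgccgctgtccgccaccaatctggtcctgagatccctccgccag
The letters ATCACCNCA were found in 2 of 15 genes of the list with an entry, Cyp51 and Srebf2, and in 0.377% of the tested genes with an entry.

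Markers of striatal projection neurons lay lower in EE. Of 18 tested genes 15 were negative and 3 positive, with a median of -0.14, -0.20 in the first set and -0.13 in the second set. At an unadjusted p under 0.05, 4 were lower, beside 5.49% of all genes, and 0 higher. Drd1, the dopamine receptor of direct-pathway neurons, measured 1.74, 1.95, 1.92, 2.01 and 1.59 FPKM in EE and 2.90, 3.71, 2.46, 4.40 and 4.87 FPKM in SH. No EE library reached an SH library, and the log2 difference was -0.69 (SE 0.13, limma adjusted p = 0.185). Gpr6, a receptor of indirect-pathway neurons, had 0.444 to 0.888 FPKM in EE and 1.07 to 1.77 FPKM in SH (-0.51). The adenosine receptor Adora2a had a difference of -0.27. Summed over all 18 genes the level was 180 to 257 FPKM in EE and 214 to 266 FPKM in SH, so the totals overlapped. Without EE replicate 4 the median was -0.24, and 7 of the 18 were lower at an unadjusted p under 0.05, beside 582 of all 12541 genes. In bulk tissue fewer cells of a type and less RNA per cell cannot be told apart, and whether the dissected pieces held unequal amounts of striatum was not tested.

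The genes that mark cortical cell types showed no common shift. Of 15 upper-layer genes 12 were positive (median 0.07), of 17 deep-layer genes 12 (median 0.08), and of 24 interneuron genes 15 (median 0.02). Each set of replicates gave the upper-layer list another sign, 0.12 and -0.10, and the deep-layer list too, 0.17 and -0.06. Without SH replicate 3 the fitted medians of these lists were 0.01 and -0.04. Without EE replicate 4 the medians of the upper-layer, deep-layer and interneuron lists were 0.0050, 0.04 and -0.0027. Tbr1, which specifies layer 6, had 27.1 to 40.1 FPKM in EE and 19.5 to 38.9 FPKM in SH, and Bcl11b, which specifies subcortical projection neurons, 17.2 to 29.0 and 9.83 to 24.9 FPKM. Both overlapped, with log2 differences of 0.03 and 0.28, which without SH replicate 3 were -0.10 and 0.05, and Tbr1 was at -0.03 without EE replicate 4. The interneuron genes Gad1 and Lhx6 were at 28.2 to 37.6 and 25.2 to 34.2 FPKM in EE, and 24.9 to 31.6 and 24.6 to 30.9 FPKM in SH. Reln, the signal of Cajal-Retzius cells, and Dcx, the microtubule protein of migrating neurons, had differences of 0.70 and 0.80 in the first set and -0.16 and -0.23 in the second set. Their fitted differences were 0.36 and 0.38, and 0.11 and 0.14 without SH replicate 3. For Reln it was 0.54 without EE replicate 4. The deep-layer cofactor Zfpm2 was the 1 member of its list separated upward in both sets, beside 1.16% of all genes. It was at 4.39 to 6.76 FPKM in EE and 2.18 to 4.14 FPKM in SH (log2 difference 0.42, limma adjusted p = 0.548). The 2.18 FPKM was that of SH replicate 3, which lay far from the other SH libraries.

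Progenitor markers lay both ways. Of 18 radial glia genes 13 were positive (median 0.10, and 0.02 without SH replicate 3), and the list's smallest p belonged to Ednrb, an endothelin receptor, at 20.1 to 28.2 FPKM in EE and 14.0 to 23.9 FPKM in SH (log2 difference 0.35, and 0.21 without SH replicate 3). Pax6 was at 4.92 to 5.39 and 3.43 to 5.69 FPKM. Intermediate progenitor and newborn neuron genes had 9 negative members of 13 (median -0.10, and -0.05 without SH replicate 3), and their median took opposite signs in the sets, -0.14 in the first and 0.12 in the second. Neurog2, the proneural factor of cortical progenitors, measured 1.49, 1.66, 1.55, 2.31 and 2.02 FPKM in EE and 4.19, 3.32, 2.203, 3.32 and 1.903 FPKM in SH, a difference of -0.70 in the first set and -0.16 in the second set, where the groups overlapped. Eomes, the marker of intermediate progenitors, overlapped at 4.13 to 6.61 and 4.27 to 8.58 FPKM. Of 18 S phase genes 16 were negative (median -0.17), and of 22 genes of G2 and mitosis 18 were (median -0.09). Of these, 3 and 2 were lower at an unadjusted p under 0.05, beside 5.49% of all genes, and 0 higher. The S phase count was 5 without SH replicate 3, where 1192 of all 12564 genes were lower. Aurka, a spindle kinase, measured 3.27, 3.85, 2.75, 2.73 and 3.92 FPKM in EE and 4.44, 5.20, 4.64, 5.06 and 4.78 FPKM in SH, below SH in every library (log2 difference -0.45, limma adjusted p = 0.321). Fen1, a nuclease of lagging-strand replication, had 6.66 to 8.80 FPKM in EE and 9.49 to 13.5 FPKM in SH (-0.39). Without EE replicate 4 the G2 and mitosis median was -0.03, and without SH replicate 3 it was -0.18.

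Most Wnt pathway genes had small differences, and the lowest p-values of the list belonged to lower genes. Wnt7a, a ligand of the ventricular zone and of brain vessels, measured 8.02, 9.48, 8.10, 6.81 and 8.53 FPKM in EE and 10.3, 10.7, 12.6, 10.6 and 10.4 FPKM in SH, with no overlap (log2 difference -0.38, limma adjusted p = 0.354). Axin2, a feedback target of beta-catenin, had 4.70 to 5.68 FPKM in EE and 5.01 to 8.70 FPKM in SH (-0.38), and the ligand Wnt5b had 0.858 to 1.34 and 1.24 to 2.25 FPKM (-0.37). These were the 3 members of 32 lower at an unadjusted p under 0.05, beside 5.49% of all genes, and 0 were higher. Wnt7a was the 1 separated member, beside 2.95% of all genes. In the list 21 were negative, with a median of -0.03 (-0.06 without SH replicate 3 and -0.01 without EE replicate 4).

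The clock, interferon and vessel-wall lists held more negative than positive members. Of 15 clock genes 12 were negative, beside 54.0% of all genes, with a median of -0.03 in the first set and -0.40 in the second set. At an unadjusted p under 0.05, 3 were lower, beside 5.49% of all genes. The count was 6 without SH replicate 3, where 1192 of all 12564 genes were lower. Without EE replicate 4 it was 1, where 582 of all 12541 genes were lower. Per2, a repressor of the clock, measured 1.97, 1.94, 1.52, 1.33 and 1.78 FPKM in EE and 2.34, 2.88, 1.26, 5.90 and 3.93 FPKM in SH, so SH replicates 4 and 5 were high and SH replicate 3 was the lowest of all. Cry1, another repressor, had 6.76 to 9.17 FPKM in EE and 9.28 to 13.8 FPKM in SH (-0.41), and Tef, an output factor, differed by -0.32. The labels give no hour of collection, so time of day and housing cannot be told apart.

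Of 16 interferon response genes 13 were negative (median -0.24), and Isg15, Bst2 and Rtp4 had differences of -0.51, -0.48 and -0.41. EE and SH overlapped in the second set for all 3 genes, and for Isg15 in the first set too. Of the 16, 4 were lower at an unadjusted p under 0.05, beside 5.49% of all genes. Without EE replicate 4 it was 1, where 582 of all 12541 genes were lower. None of the 16 was separated in both sets (0 lower and 0 higher), beside 2.95% and 1.16% of all genes. Among glycolysis genes Eno1 measured 124, 116, 121, 124 and 149 FPKM in EE and 153, 148, 185, 163 and 170 FPKM in SH, below SH within each set (log2 difference -0.37, limma adjusted p = 0.378). Pkm was at 205 to 247 and 246 to 320 FPKM (-0.26) and Aldoa at 92.4 to 120 and 112 to 182 FPKM (-0.33), while the list of hypoxia and glycolysis had 11 positive and 14 negative members beside 54.0% negative over all genes, and a median of -0.04 (-0.09 without SH replicate 3 and -0.06 without EE replicate 4). In that list 3 were separated downward, beside 2.95% of all genes. Of 13 genes of pericytes and smooth muscle 9 were negative (median -0.12, and -0.19 without SH replicate 3). The contractile genes Myl9, Tagln and Acta2 had differences of -0.57, -0.61 and -0.46 and were the 3 members separated in both sets, beside 2.95% of all genes, and Myl9 was at 12.6 to 17.2 FPKM in EE and 17.8 to 31.8 FPKM in SH. The summed level of that list was 96.7 to 147 FPKM in EE and 137 to 186 FPKM in SH.

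Genes of RNA processing held members on both sides. Clk1, a kinase that activates SR splicing proteins, measured 14.6, 14.0, 11.5, 21.02 and 16.8 FPKM in EE and 23.0, 21.7, 19.02, 27.3 and 26.5 FPKM in SH. Each EE library lay below SH of its set (log2 difference -0.58, limma adjusted p = 0.185), and the hippocampal difference was -0.67. Tra2a, an SR-like splicing activator, measured 33.9, 27.5, 33.2, 37.8 and 42.7 FPKM in EE and 25.5, 27.8, 19.3, 30.0 and 24.7 FPKM in SH, and EE replicate 2 lay within SH (0.45). Of 43 splicing regulators 30 were positive and 13 negative. Members past an unadjusted p of 0.05 were 3 higher and 3 lower, beside 1.95% and 5.49% of all genes. Without SH replicate 3 they were 1 higher and 3 lower, beside 227 and 1192 of all 12564 genes.

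The zinc finger genes, a large family, leaned to one side. Of 309 tested genes named Zfp, most of them DNA-binding repressors of the C2H2 kind, 228 were negative and 81 positive, with a median of -0.13. Those lower at an unadjusted p under 0.05 numbered 73 (23.6%, beside 5.49% of all genes), with 4 higher, and 30 were separated downward (9.71%, beside 2.95%) and 1 upward. The median was -0.05 in the first set and -0.36 in the second set, and -0.21 in hippocampus. Without SH replicate 3 it was -0.23, with 136 lower and 101 separated downward. Over all genes those counts rose too, from 689 to 1192 lower and from 370 to 849 separated downward. With each library's trend on length, GC content and level removed the Zfp median was -0.14. Zfp105, Zfp786 and Zfp830 measured 2.54 to 2.83, 2.13 to 2.65 and 3.10 to 3.90 FPKM in EE, and 3.69 to 4.58, 3.39 to 4.48 and 4.89 to 5.82 FPKM in SH, with no overlap. Zkscan14 had a log2 difference of -0.68 and Zbtb8a one of -0.45, both separated. Of 57 genes named Zkscan, Zscan or Zbtb 37 were negative, with a median of 0.07 in the first set and -0.35 in the second set. Zfp207, named above, went the other way.

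**Figure D3:**
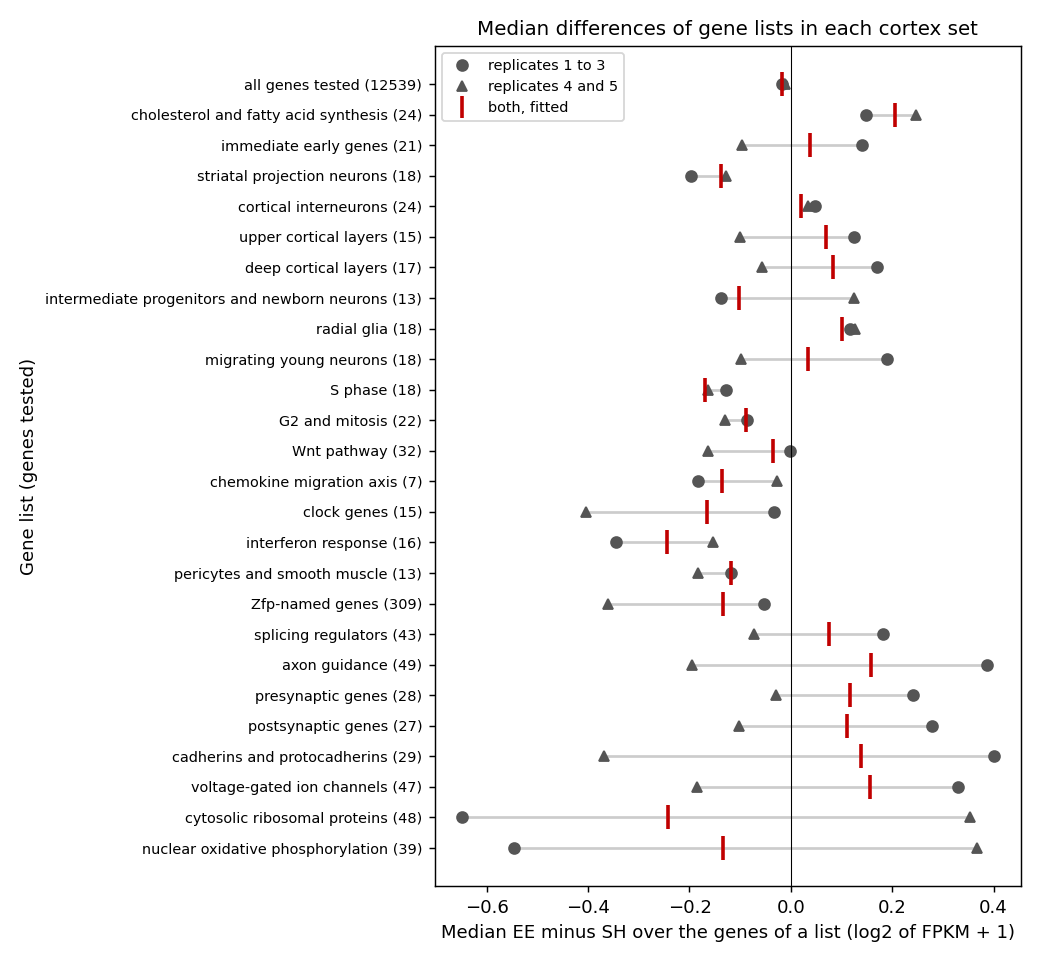
Median EE minus SH difference (horizontal axis, log2 of FPKM + 1) of 25 gene lists and of all tested genes, with circles for replicates 1 to 3, triangles for replicates 4 and 5, and red bars for the fit over both. The sterol, striatal and S phase lists have both sets on one side of 0, while the cadherin, axon guidance, ribosomal and oxidative phosphorylation lists have the sets on opposite sides.

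For most genes the 2 sets of replicates did not share a direction. The sign was the same in both sets for 4575 of 12539 genes (36.5%), and across genes, which are not independent replicates, the differences of the sets had a Pearson r of -0.40. Without SH replicate 3 these values were 45.004% and -0.12, and with the trend on length, GC content and level removed they were 48.7% and -0.09. No gene passed the limma test of the difference between sets (smallest adjusted p 0.251), while 2434 (19.4%) had an unadjusted p under 0.05. The 5 with the smallest p were Mus81, Olig1, Id1, Vkorc1 and Lsm10, with the EE difference 1.04, 1.11, 1.69, 1.18 and 1.23 higher in the second set. Id1, a BMP target, measured 21.01, 25.4 and 25.2 FPKM in EE and 26.0, 23.4 and 35.5 FPKM in SH of the first set, and 32.6 and 22.4 FPKM against 10.8 and 7.64 FPKM in the second set. The SH libraries of the second set were the low ones.

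**Figure D4:**
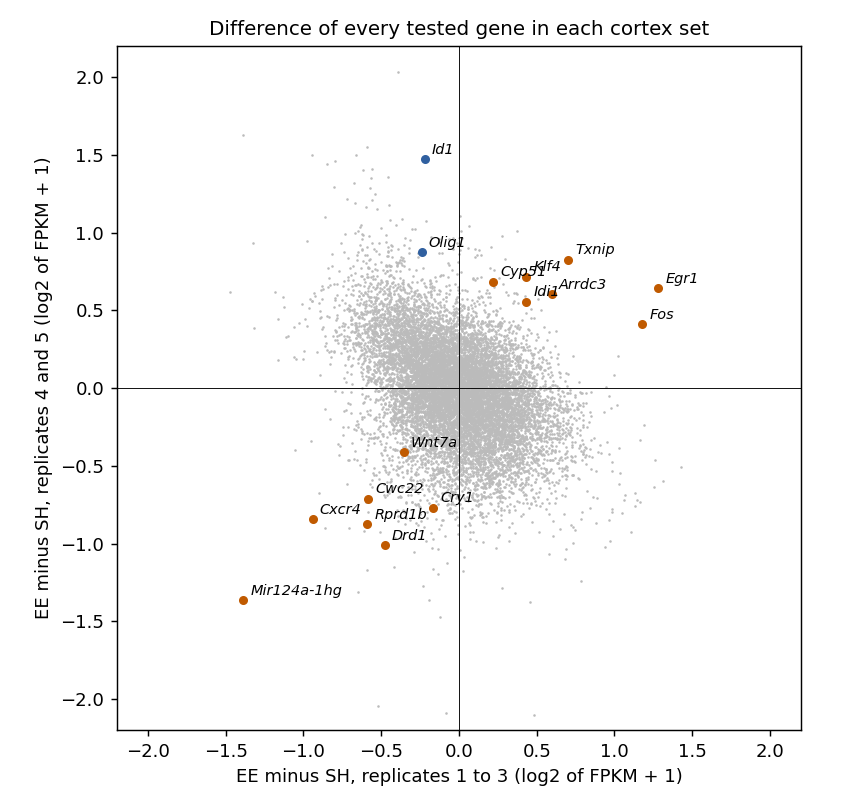
Each point is 1 of 12539 tested genes, placed by its EE minus SH difference (log2 of FPKM + 1) in replicates 1 to 3 (horizontal axis) and in replicates 4 and 5 (vertical axis). Named genes in orange have the same sign in both sets, such as Mir124a-1hg at -1.39 and -1.37, and those in blue, Id1 and Olig1, have opposite signs.

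Lists of long neuronal transcripts and of short housekeeping transcripts took opposite signs in the sets. Median transcript length was 6275, 6388 and 7169 bases for axon guidance, cadherin and ion channel genes, 1240 and 1141 bases for ribosomal and oxidative phosphorylation genes, and 3489 bases over all tested genes. Axon guidance genes had a median of 0.39 in the first set and -0.19 in the second set, cadherins and protocadherins 0.40 and -0.37, and voltage-gated ion channels 0.33 and -0.18. Ribosomal protein genes had medians of -0.65 and 0.35, and nuclear genes of oxidative phosphorylation -0.55 and 0.37. In the fit over both sets these 5 lists had medians of 0.16, 0.14, 0.16, -0.24 and -0.13. Without SH replicate 3 those fitted medians were -0.01, -0.04, -0.01, 0.01 and 0.04. A fitted median near 0 does not show that the sets shared a direction. The Spearman rho between transcript length and a library's deviation from its set ran, in the first set, from 0.44 to 0.64 for EE libraries and from -0.76 to 0.28 for SH libraries. In the second set the order was turned, with -0.36 to -0.25 for EE and 0.27 to 0.46 for SH. Its part in the medians was not tested beyond the fit over both sets with the trend removed. That fit gave 0.08, 0.06, 0.06, -0.12 and -0.03 for the 5 lists.

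For the genes named in the series title no difference beyond the spread between libraries was detected. Ahr, the ligand-activated aryl hydrocarbon receptor, measured 1.08, 0.944, 0.768, 0.963 and 1.02 FPKM in EE and 1.05, 1.02, 0.856, 1.61 and 1.03 FPKM in SH (log2 difference -0.11, SE 0.09, limma adjusted p = 0.820). Cyp1b1, one of its target genes, was at 3.33 to 5.06 FPKM in EE and 3.03 to 4.76 FPKM in SH (0.18). Src, the tyrosine kinase, measured 27.7, 30.9, 31.0, 25.6 and 29.3 FPKM in EE and 28.5, 30.4, 24.2, 31.0 and 31.4 FPKM in SH (-0.01, SE 0.10, limma adjusted p = 0.990), and its sign turned under several settings. None of 9 tested AHR pathway genes and none of 16 Src family genes had an unadjusted p under 0.05. Over all genes the shares were 1.95% higher and 5.49% lower, so with so few members nothing is read from this. The list medians were -0.05 and 0.02. Both medians turned sign without SH replicate 3, to 0.01 and -0.01, and without EE replicate 4 they were -0.0045 and 0.06. The SE leaves room for small differences, and kinase activity is not measured here.

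Hippocampus gave a comparison in other libraries. The labels name no fetus or litter, so both tissues may come from the same animals and the comparison may not be independent. All 15 of the lower genes and 14 of 14 listed higher genes had the same sign there, as did 6527 of 12314 genes tested in both tissues (53.0%). In the fit over 12672 genes of both tissues none had an EE effect that differed between tissues at an adjusted p of 0.05 (limma, smallest adjusted p 0.998), and 89 (0.702%) had an unadjusted p under 0.05. Egr1 measured 14.1, 17.1 and 22.5 FPKM in EE and 4.51, 3.74 and 5.76 FPKM in SH of hippocampus, a log2 difference of 1.73. Cxcr4 measured 37.6, 47.8 and 34.0 FPKM against 58.4, 57.9 and 69.6 FPKM (-0.64), and Txnip 59.1, 70.4 and 61.7 FPKM against 72.1, 25.4 and 25.6 FPKM (0.80), where 1 SH library was as high as EE. Besides Arc, the smallest p of the difference between tissues belonged to Fah, Rnaseh1, C1qtnf2 and Npm1. Their effects in hippocampus were 0.71, 0.54, 0.90 and 0.42 above those in cortex.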

How the data were processed

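Trizol was used to extract RNA and a NEBNext Ultra kit to prepare libraries, per the labels' protocols. The authors deposited 1 table of FPKM values per library. Named in the submitters' processing notes are the build mm10, StringTie 1.3.4d, HISAT2 2.0.4, DESeq2, edgeR and cutadapt 1.9, and the role of each, the annotation, the use of strand and the rule for unlisted genes are not given in the sources used here. Unlisted genes were treated as missing. A gene and its antisense partner cannot be told apart.

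Whole reads were recovered from the steps of the FPKM values for 99.94% of 16250 symbols (tolerance 0.02 reads), and the recovery and the test were tested on simulated data. Two-sided tests used limma 3.58.1 (lmFit, eBayes with trend) in R 4.3.3 on log2(FPKM + 1) with a set term, a minimum mean of 1 FPKM and an adjusted p of 0.05 or less. Separation was counted with no test. The rule for named genes took the top 15 by p in each direction (predicted names left out), at most 4 from a list described, fixed genes, the 5 genes with the smallest p in each difference of effects, and sex chromosome markers. Mir124-2hg and Ttr were chosen after their values were seen, and some genes the rule selects are not reported here. The members and lists were chosen with earlier results of these data known.

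GENCODE M21 gave positions and lengths (95.5% of symbols matched) and RefSeq gave sequences. There were 23 symbols turned into dates, which are not named, and 1 symbol for 2 genes was left out. Alternatives were other scalings, filters, pseudocounts, variance models, blocks, library sets, a term for the Y-linked level, removal of the trend on length, GC content and level, and each library left out. Voom on the recovered reads, list counts without SH replicate 3 or EE replicate 4, and the agreement of the sets without that library or the trend were added after seeing the data.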

Additional observations from a re-analysis of the deposited data

Results flagged for a closer look

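In 23 of 254 groups of 5 cortex libraries checked, 1 library lay far from the other 4 (its gap to the nearest was over 0.71 of the range), where chance alone gives about 1 group in 20. SH replicate 3 was that library for Fos (1.82 FPKM), Gad1 (24.9 FPKM), Mamld1 (1.15 FPKM), Myl9 (31.8 FPKM), Pkm (320 FPKM), Wnt7a (12.6 FPKM) and Zfpm2 (2.18 FPKM), and for the summed levels of medial pallium and hippocampus genes (81.8 FPKM) and erythroid genes (4227 FPKM). EE replicate 4 was that library for Ackr3 (8.63 FPKM), Mamld1 (4.01 FPKM), Nxph1 (4.14 FPKM), Tbr1 (40.1 FPKM), Xist (0.993 FPKM) and Zfp207 (30.7 FPKM), and for the summed level of intermediate progenitor and newborn neuron genes (129.6 FPKM). EE replicate 5 was that library for Eno1 (149 FPKM), Esam (12.6 FPKM) and Vkorc1 (28.9 FPKM). SH replicate 4 was that library for Ahr (1.61 FPKM) and Zbtb8a (9.29 FPKM). EE replicate 1 was that library for Gpr6 (0.444 FPKM) and EE replicate 2 for Slc17a7 (43.8 FPKM). The groups share libraries, so these counts are not independent. Each group also mixes the 2 sets of replicates, which have their own baselines. The rate of 1 in 20 takes values with 1 baseline, so it does not strictly apply here.

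The Xist level of EE replicate 4 is far below that of the 2 hippocampal libraries with low Y-linked levels, EE replicate 3 at 81.1 FPKM and SH replicate 2 at 70.8 FPKM. Its Ddx3y, Eif2s3y, Kdm5d and Uty were all listed at 0, and the cause was not tested.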

How the results depend on the processing

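Limits: 5 libraries per group in 2 sets of 3 and 2, no litters named, 1 library (SH replicate 3) that stands apart, and levels near 1 FPKM that rest on few reads. Mir124a-1hg kept its direction under every alternative run. The count of genes called was 1 in the reported fit, 3 with quantile normalization, 0 with no term for the set, 0 in replicates 1 to 3 only, 435 in replicates 4 and 5 only (210 of them higher, from 2 libraries a group), 10 with all 16 libraries in 1 fit and 5 with the trend on length, GC content and level removed. The 5 were Cwc22, Cxcr4, Egr1, Mir124a-1hg and Rprd1b. With each library left out it was 1 to 3, the 3 without SH replicate 3 being Cxcr4, Mir124a-1hg and Rprd1b. Voom on recovered reads gave 1. The count of separated genes was 516, and 342 at a mean FPKM of at least 5, 3852 in replicates 1 to 3 only, 5860 in replicates 4 and 5 only, 779 with the trend removed and 633 to 1209 with each library left out (1209 without EE replicate 5, 1041 without SH replicate 3, 861 without SH replicate 5, 817 without EE replicate 4). Those settings demand fewer libraries or test fewer genes, and for the trend the cause was not tested. The test between sets called 0 genes, and 0 to 3 with each library left out (3 without SH replicate 3, 1 without EE replicate 5). The test between tissues called 0 under every alternative run.

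In the fit with a replicate block 1 gene was called, Mir124a-1hg, and no other call changed. The labels do not say that a number pairs libraries, and same-numbered EE and SH libraries had correlated deviations of 0.40, 0.09, 0.41, 0.14 and 0.14, where the last 2 are 1 value by construction. All 5 correlated best with their own number within the set. The last 2 of these matches are also 1 outcome by construction, so this is a weak hint from the data only.

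Signs turned only for genes with differences near 0 or unlike sets. In replicates 4 and 5 only the values were -0.056 for Bcl11b, -0.23 for Dcx, -0.0083 for Gad1, -0.014 for Pax6, -0.16 for Reln and -0.13 for Tbr1. With each library left out Mir124-2hg ranged from -0.18 to 0.021 (above 0 without SH replicate 3), Pax6 ranged from -0.014 to 0.148, Src from -0.072 to 0.049 and Tbr1 from -0.100 to 0.127. Src was 0.0031 with median-of-ratios scaling, 0.11 in replicates 1 to 3 only and 0.045 with the term for the Y-linked level. Tbr1 was -0.0022 with quantile normalization.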

Other observations

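A few growth and synapse genes outside the groups above also kept EE and SH apart in both sets, each with an adjusted p above 0.05 in limma. Over all genes 1.16% were separated upward and 2.95% downward. Upward it was 2 of 26 growth factor genes, 1 of 26 FGF and hedgehog genes and 1 of 19 GABA and glycine receptor genes. Downward it was 1 of 23 Notch genes. A single member of a short list says little beside those shares. Gfra2, the receptor for neurturin, measured 7.09 to 8.13 FPKM in EE and 5.45 to 7.05 FPKM in SH (log2 difference 0.30), and Met, the receptor for hepatocyte growth factor, 3.95 to 4.98 and 2.06 to 3.83 FPKM (0.34). Fgf10 measured 1.10 to 1.65 FPKM in EE and 0.549 to 0.987 FPKM in SH (0.34). Gphn, the gephyrin scaffold of inhibitory synapses, measured 9.94 to 11.04 and 7.12 to 9.71 FPKM (0.27). Dll4, a Notch ligand of vessels, lay lower, at 1.13 to 1.74 FPKM in EE and 1.46 to 2.37 FPKM in SH (-0.32). The imprinted noncoding RNA H19 had 65.1 to 114 FPKM in EE and 98.7 to 180 FPKM in SH, with overlap in replicates 4 and 5 (-0.44).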
